A study of Mus musculus with 14 samples.

Results

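A list of 39 genes of the interferon response and of MHC class I antigen presentation was followed in RNA sequencing libraries of cultured mouse neural stem cells. The genes were listed by name, with earlier results of these data known, and were matched by symbol to the Ensembl identifiers of the 29713 genes measured. In all 38 were found, Mx2 is not analysed here, and 31 passed the filter on low counts that left 13413 genes to be tested. The cells (NSC) came from OG2 mice, a strain that carries a green fluorescent reporter of the pluripotency gene Pou5f1. The series addresses how opioid receptor ligands act on NSC kept undifferentiated or differentiating. At passage 8, 3 treatments were crossed with 4 stages, with 1 library for each of the 12 conditions. The treatments were naloxone, an opioid receptor antagonist, DAMGO, a peptide agonist of the mu opioid receptor, and a control named NC in the labels. The stages were undifferentiated cells and day 2, day 4 and day 8 of differentiation. A library of NSC at passage 13 and a library at passage 8, both without a treatment label, served as references. The sources used here give no doses, differentiation medium or number of cultures or animals.

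Interferons are secreted proteins that bind receptors coupled to Janus kinases. Type I and type III interferons act through a complex that holds STAT2 and IRF9 and binds the interferon-stimulated response element (ISRE), and interferon gamma acts through the GAS element. The induced genes encode sensors of foreign nucleic acid, inhibitors of viral replication, GTPases that attack the vacuoles of parasites, and the machinery that loads peptides on MHC class I for display to CD8 T cells. Neurons and neural progenitors are known for low surface MHC class I, and astrocytes for responding readily to interferon.

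Sequences before the RefSeq start of 6 members are shown. They hold the ISRE core in genes that rose at day 8, or, for Isg15, in a gene that did not pass the filter, with at most 12 counts in a library. Each runs 5′ to 3′ on the strand of the gene, from RefSeq on GRCm38.p6, and capitals mark the core on either strand. For Ifit3 and B2m the 250 bases before the RefSeq start are given, at chr19:34583279-34583528 on the plus strand and chr2:122147437-122147686 on the plus strand. For Isg15, which was picked after its values were seen, they lie at chr4:156200819-156201068 on the minus strand.
Ifit3: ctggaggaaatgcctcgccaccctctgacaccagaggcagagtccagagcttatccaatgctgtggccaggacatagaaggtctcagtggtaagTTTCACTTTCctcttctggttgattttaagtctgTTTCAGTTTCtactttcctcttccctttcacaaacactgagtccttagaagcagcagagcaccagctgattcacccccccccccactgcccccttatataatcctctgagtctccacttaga
B2m: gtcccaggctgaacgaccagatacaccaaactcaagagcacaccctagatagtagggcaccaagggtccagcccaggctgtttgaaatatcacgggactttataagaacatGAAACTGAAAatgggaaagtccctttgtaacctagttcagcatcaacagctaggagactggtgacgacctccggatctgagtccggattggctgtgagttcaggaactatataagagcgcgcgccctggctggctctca
Isg15: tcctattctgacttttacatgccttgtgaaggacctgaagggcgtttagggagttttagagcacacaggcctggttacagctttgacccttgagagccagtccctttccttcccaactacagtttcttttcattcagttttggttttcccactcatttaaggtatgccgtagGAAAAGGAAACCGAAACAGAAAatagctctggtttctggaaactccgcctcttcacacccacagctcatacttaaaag
For Gbp2, at chr3:142620594-142620623 on the plus strand, H2-T23, at chr17:36032806-36032835 on the minus strand, and Irgm1, at chr11:48871431-48871460 on the minus strand, the 30 bases around 1 core are given, Irgm1 having been added after its values were seen.
Gbp2: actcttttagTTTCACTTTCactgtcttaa
H2-T23: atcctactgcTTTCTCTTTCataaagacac
Irgm1: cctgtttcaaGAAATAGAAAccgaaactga
The core was searched as GAAANNGAAA on both strands from 250 bases before to 50 bases after the start. It was found in 14 of the 29 members with a RefSeq promoter (48.3%), against 3.99% of 27025 genes and 3.41% of the 10220 tested genes that had one. The core of the GAS element, TTCNNNGAA, was found in 6 of the 29 members (20.7%), against 9.55% of the 27025 genes. Copies of a core may overlap each other and the other core, as do the 3 ISRE copies of Isg15 that start at -78, -72 and -66. Ifit3 held ISRE copies at -156 and -122, B2m at -139, Gbp2 at -59 and H2-T23 at -124 relative to the RefSeq start. The GENCODE annotation starts 3 of these genes further upstream. It places H2-T23 at chr17:36029773-36032855, Irgm1 at chr11:48861968-48871683 and Gbp2 at chr3:142620602-142638008. By it, the stretches shown for H2-T23 and Irgm1 and the core of Gbp2 lie within the gene. These matches describe letters only and say nothing of binding in these cells.

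By library-scaled counts, most members reached their highest level at day 8 and many their lowest at day 4. By mean CPM (counts scaled to library size with TMM factors), day 8 was the highest stage for 27 of the 31 tested members (87.1%), against 35% of all genes tested. Day 4 was the lowest stage for 20 of the 31 (64.5%), against 19.7% of all genes tested. By mean TPM fewer members followed this course. On that scale Ddx58, Samhd1, Rtp4 and Rsad2 were no longer highest at day 8. Ifih1, Ddx58, Irf1, Gbp3, Irgm1, Trim25, H2-K1 and Tap2 were no longer lowest at day 4 in TPM. At day 8 against undifferentiated cells, 23 members rose and 2 fell past an adjusted p of 0.05 (edgeR), where 41.5% of all genes tested rose and 38.3% fell, 79.8% together. The median log2 change was 1.26 over the members and 0.05 over all genes tested. The spread in these tests came from the 3 treatments at each stage, and so includes drug effects specific to 1 stage, while differences between cultures were not measured. Since bulk RNA was sequenced, more cells of a type and more RNA per cell cannot be told apart.

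**Figure D1:**
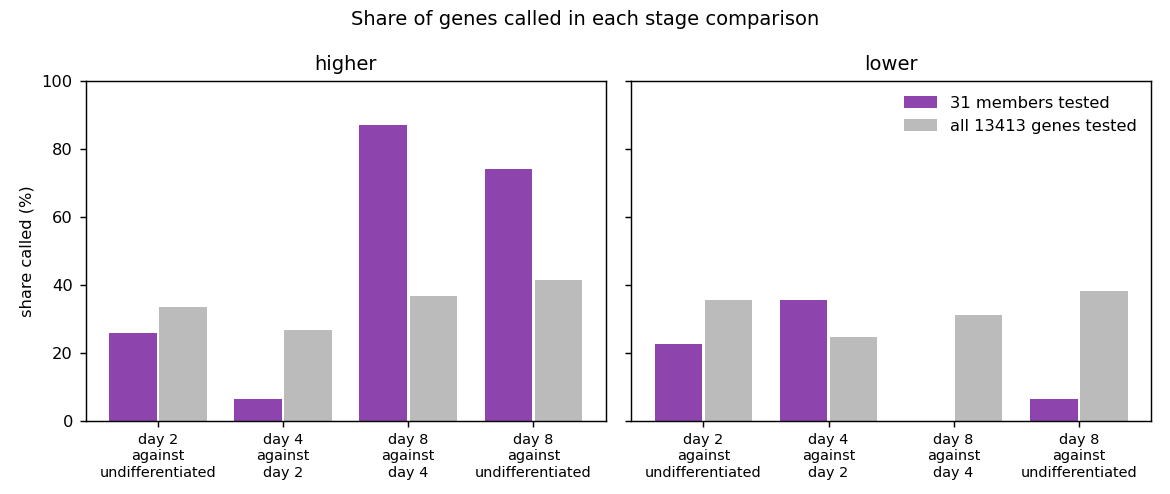
Share of the 31 members tested and of all 13413 genes tested, in percent, that were called higher (left) or lower (right) in each stage comparison at an adjusted p of 0.05. At day 8 against day 4, 27 members were higher and 0 lower, where 36.7% and 31.1% of all genes were.

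The rise came late. At day 8 against day 4, 27 members rose and 0 fell, where 36.7% of all genes tested rose and 31.1% fell (67.9% together), and the median log2 change was 1.72 over the members and 0.07 over all genes tested. Those that rose both in that step and against undifferentiated cells were 23 members (74.2%), against 28.3% of all genes tested. Earlier steps were mixed. At day 2 against undifferentiated cells, 8 members rose and 7 fell, where 33.4% of all genes rose and 35.6% fell (69% together). At day 4 against day 2, 2 members rose and 11 fell, where 26.8% of all genes rose and 24.5% fell (51.3% together). A fall at day 4 followed by a rise at day 8 was called for 10 members (32.3%), namely Ddx58, Samhd1, Bst2, Parp9, Ifi35, B2m, H2-D1, H2-T23, Tap1 and Tap2, against 13.3% of all genes tested. With TPM in place of CPM the median of all genes shifted to 0.20 at day 4 against day 2 and to -0.29 at day 8 against day 4. On that scale 5 members rose and 8 fell at day 4 against day 2, beside 35.8% and 11.7% of all genes. At day 8 against day 4, 23 members rose and 0 fell on that scale, beside 19.2% and 45.9% of all genes. At day 8 against undifferentiated cells, 21 rose and 3 fell on it, beside 33.4% and 43.1% of all genes, whose median was -0.16.

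The filter on low counts kept some members through day 8. Of the 31 tested, Ifih1, Nlrc5, Ifit3, Xaf1, Rtp4, Igtp, Usp18 and Ifi35 averaged under 1 CPM over the 9 libraries of the other stages, so a difference was built into their passing. Without these 8, 17 of 23 members rose and 2 fell at day 8 against undifferentiated cells, beside 41.5% and 38.3% of all genes tested. At day 8 against day 4, 20 of the 23 rose and 0 fell, beside 36.7% and 31.1%. The shares of all genes were not cut in the same way. Nlrc5, Ifit3, Xaf1, Igtp, Usp18 and Ifi35 are also among the members that rose both against day 4 and against undifferentiated cells. That joint count, the counts of highest and lowest stage, the medians and the counts by role were not repeated without the 8. The 7 members found and not tested were Irf7, Sp100, Ifit1, Oasl2, Mx1, Iigp1 and Isg15, with totals of 2 to 44 counts over the 14 libraries.

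**Figure D2:**
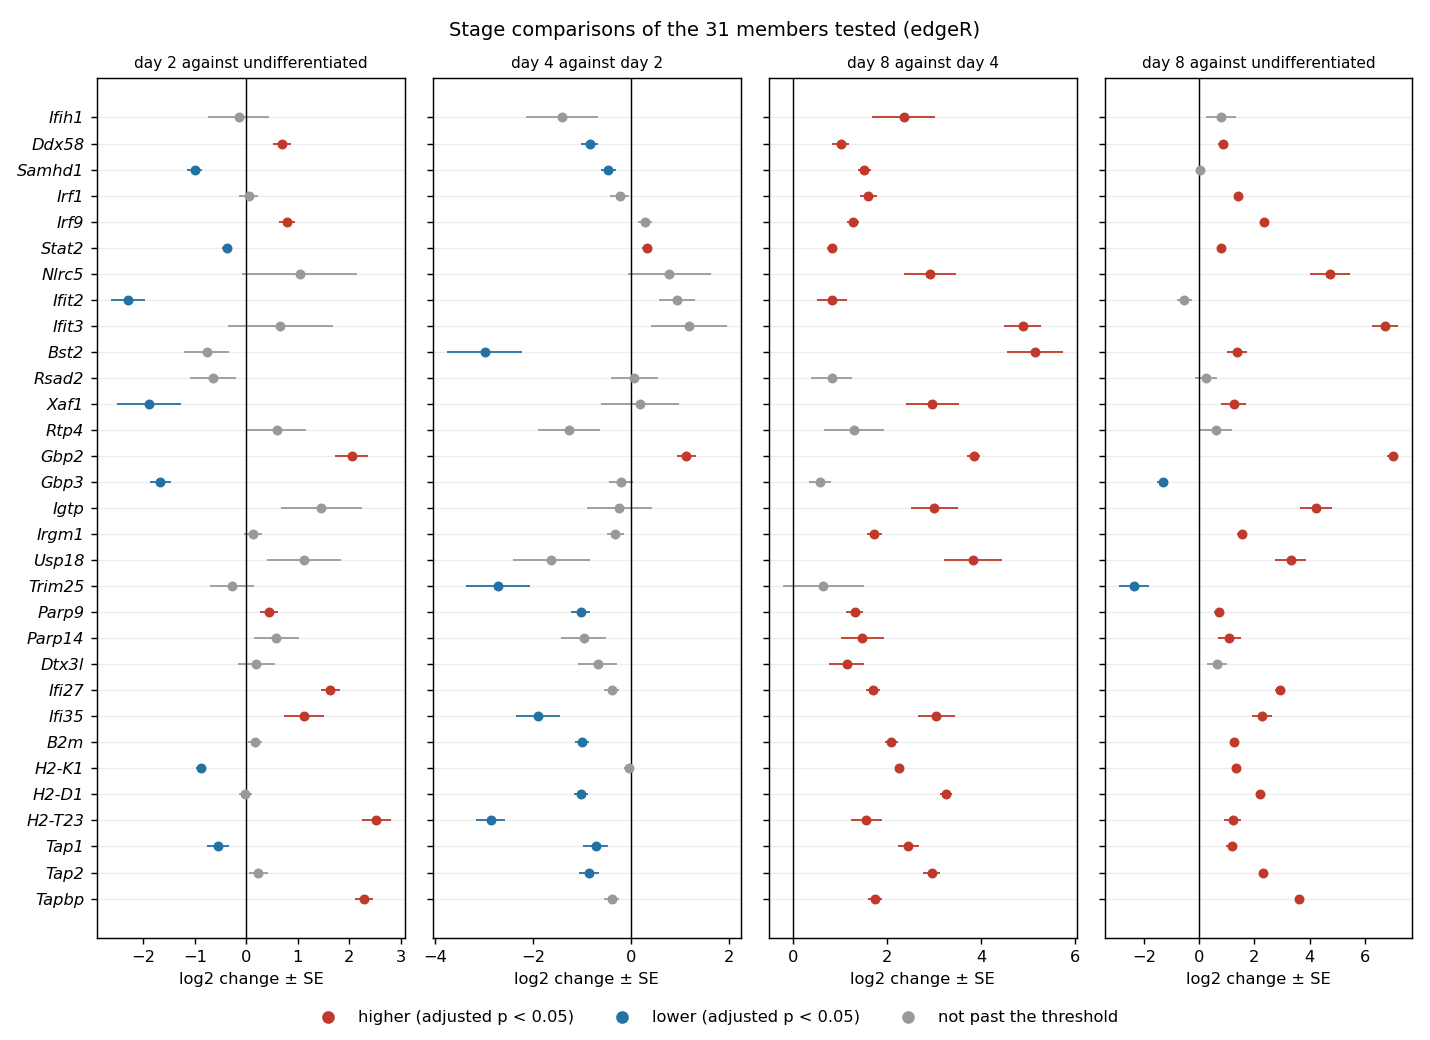
Log2 change with its SE for the 31 members tested in the 4 stage comparisons, from the additive edgeR model of 12 libraries, in the order of their roles. Red and blue points passed an adjusted p of 0.05. In the panel of day 8 against day 4 all 31 estimates lie above 0.

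Of the sensors and the nucleic acid restriction factor, 1 of 3 rose at day 8 against undifferentiated cells, beside 41.5% of all genes tested. Samhd1, a phosphohydrolase that depletes nucleotides and so limits retroviruses, had 51.0, 38.2 and 37.3 CPM at day 8 with naloxone, DAMGO and NC, against 41.9, 41.1 and 39.7 CPM in undifferentiated cells. These ranges overlapped, and the log2 change was 0.04 ± 0.13 (SE). Between them it was lower, at 20.4 ± 3.57 CPM at day 2 and 14.8 ± 0.411 CPM at day 4 (SD, n = 3 each). In CPM its course was thus a dip and a return. In TPM the return was partial, from 11.1 ± 0.485 at day 4 to 24.5 ± 6.03 at day 8, against 35.4 ± 0.333 in undifferentiated cells. Ddx58, which encodes the RNA sensor RIG-I, averaged 6.66 ± 0.202 CPM in undifferentiated cells, 10.7 ± 1.35 CPM at day 2, 5.97 ± 0.763 CPM at day 4 and 12 ± 2.13 CPM at day 8. Each of these steps passed, and the log2 change at day 8 against undifferentiated cells was 0.85 ± 0.17. Ifih1, which encodes the RNA sensor MDA5, stayed at 0.231 to 2.44 CPM in all 12 libraries. Its rise at day 8 against day 4 (2.35 ± 0.67) did not pass without the day 4 NC library (adjusted p = 0.0712).

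All 4 transcription factors tested rose at day 8 against undifferentiated cells, beside 41.5% of all genes tested. Irf9, the DNA-binding subunit of the complex that recognizes the ISRE, had a higher mean at each stage than at the one before. It had 5.71, 7.91 and 7.49 CPM in undifferentiated cells with naloxone, DAMGO and NC, 11.5, 13.8 and 11.3 CPM at day 2, 14.2, 14.3 and 16.1 CPM at day 4, and 37.8, 34.8 and 35.4 CPM at day 8. Its day 8 libraries lay above all others, and the log2 change against undifferentiated cells was 2.36 ± 0.14 (edgeR adjusted p = 1.01e-07). The step from day 2 to day 4 did not pass the threshold (0.29 ± 0.14). Irf1, a factor induced by interferon gamma that binds ISRE-like sites, did not pass at day 2 against undifferentiated cells (0.05 ± 0.18) or at day 4 against day 2 (-0.23 ± 0.19), and then rose. It had 18.8, 19.2 and 17.8 CPM at day 8, against 8.31, 6.85 and 5.67 CPM in undifferentiated cells, without overlap (log2 change 1.42 ± 0.17). Stat2, the partner of Irf9, averaged 63.5 ± 2.12 CPM at day 8 and 37.1 ± 1.61 CPM in undifferentiated cells (log2 change 0.78 ± 0.09). With the trend on GC content and length removed, the change of Stat2 was 0.31 ± 0.09 and still passed. Nlrc5, the transactivator of MHC class I genes, had 106 counts at day 8 and 3 in undifferentiated cells, a ratio of 29.6 with a 95% counting interval of 9.86 to 146. Its fitted log2 change was 4.74 ± 0.71, or 5.61 without the undifferentiated naloxone library. This interval and the others here cover counting error only. Irf7, which amplifies type I interferon production, had 18 counts at day 8 and 0 in undifferentiated cells. With the undifferentiated sum set at 3 counts it was at least 5.03-fold higher. Of the 18 counts 13 came from 1 library, and the day 8 libraries ranged from 0.188 to 1.54 CPM. Sp100, a nuclear body protein, had 2 counts in all.

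Of the 6 antiviral effectors tested, 3 rose and 0 fell at day 8 against undifferentiated cells, beside 41.5% and 38.3% of all genes tested. Against day 4, 4 rose and 0 fell, beside 36.7% and 31.1% of all genes. Ifit3, whose protein stabilizes IFIT1 on viral RNA, was at or near 0 before day 8. It had 0, 0.351 and 0.203 CPM in undifferentiated cells with naloxone, DAMGO and NC, 0.379, 0.537 and 0 CPM at day 2, 0.736, 1.16 and 0.331 CPM at day 4, and 18, 23.2 and 23.1 CPM at day 8. Its 409 counts at day 8 and 3 counts in undifferentiated cells gave a ratio of 114 with a counting interval of 38.8 to 556. Expected counts of Ifit3 were not whole in 7 of the 14 libraries, so some reads may be divided between genes, which the interval does not cover. Its fitted log2 change, 6.73 ± 0.49, was 7.42 without the undifferentiated DAMGO library. Against day 4 the log2 change was 4.88 ± 0.39 (edgeR adjusted p = 3.49e-06). Ifit2, the neighbour of Ifit3 on chromosome 19, fell at day 2. It had 1.64, 2.51 and 5.79 CPM at day 2, against 16.1, 16.5 and 14.6 CPM in undifferentiated cells, without overlap (log2 change -2.30 ± 0.33, edgeR adjusted p = 0.000129). Without the day 2 NC library, the highest of the day 2 libraries, it was -2.90. At day 8 it had 6.85, 13.5 and 13.9 CPM, all below the undifferentiated libraries, with a log2 change of -0.53 ± 0.28 that did not pass and that turned to 0.40 ± 0.18 (adjusted p = 0.0629) with the trend on GC content and length removed. Its rise at day 8 against day 4 (0.82 ± 0.32) did not pass without the undifferentiated DAMGO, day 4 NC, day 4 DAMGO, day 8 NC or day 8 DAMGO library (adjusted p = 0.0589, 0.143, 0.118, 0.113 and 0.149). Ifit1, the third member of the family listed, had 12 counts in the 14 libraries. Ifit1 and Ifit3 each held 2 ISRE cores in the promoter window, and Ifit2 held 0.

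Bst2, which encodes tetherin, a protein that holds budding virus at the cell surface, was at or near 0 at day 4 and highest at day 8. It had 1.56, 1.58 and 2.83 CPM in undifferentiated cells, 0.885, 1.43 and 1.16 CPM at day 2, 0, 0 and 0.331 CPM at day 4, and 4.96, 5.88 and 4.31 CPM at day 8. Without the day 4 NC library, the 1 with counts at day 4, the log2 change was -5.76 at day 4 against day 2 and 7.90 at day 8 against day 4, in place of -2.99 and 5.14, and since the other day 4 libraries held 0 counts these fitted values are no bound. Its rise at day 8 against undifferentiated cells (log2 change 1.38 ± 0.36) did not pass with a trend on GC content and length removed (adjusted p = 0.385) or with log2(TPM + 0.1) (adjusted p = 0.170). Xaf1, a pro-apoptotic factor, rose at day 8 (log2 change 1.25 ± 0.44), a call that ended without the undifferentiated NC, naloxone or DAMGO library (adjusted p = 0.0545, 0.0591 and 0.108) and without the day 8 naloxone library (adjusted p = 0.116). Its fall at day 2 against undifferentiated cells (-1.89, and -2.80 without the day 2 NC library) did not pass without the undifferentiated NC, undifferentiated naloxone, day 2 naloxone or day 2 DAMGO library (adjusted p = 0.0617, 0.0531, 0.069 and 0.0766). It rose at day 8 against day 4 (2.96, with 2.35 without the day 4 NC and 4.41 without the day 4 DAMGO library). Rsad2, which encodes viperin, and Rtp4 did not pass, at 0.25 ± 0.40 and 0.62 ± 0.58. Oasl2 had 18 counts at day 8 and 1 in undifferentiated cells, a ratio of 15.1 with a counting interval of 2.38 to 628. Mx1, a GTPase that blocks influenza virus, had 40 counts in the 14 libraries and at most 6 in 1 library.

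The GTPases held the largest fitted change at day 8 among the 31 members tested, that of Gbp2 (log2 change 7.01 ± 0.20 against undifferentiated cells). Gbp2, a guanylate-binding protein that coats pathogen vacuoles, lies at chr3:142620602-142638008 on the plus strand. It had 0.346, 0.527 and 0.810 CPM in undifferentiated cells with naloxone, DAMGO and NC, 2.02, 2.33 and 2.61 CPM at day 2, 3.50, 6.47 and 5.63 CPM at day 4, and 65.1, 82.5 and 72.7 CPM at day 8. The 4 stages did not overlap. The log2 change was 2.05 ± 0.31 at day 2 against undifferentiated cells, 1.13 ± 0.20 at day 4 against day 2 and 3.84 ± 0.14 at day 8 against day 4. From 1416 counts at day 8 and 9 in undifferentiated cells the ratio was 132, with a counting interval of 69.2 to 289. Gbp3, its neighbour on chromosome 3, fell at day 2 and was low thereafter. It had 4.84, 7.09 and 6.75 CPM at day 8, against 16.8, 13.4 and 15.6 CPM in undifferentiated cells, without overlap (log2 change -1.31 ± 0.20, edgeR adjusted p = 0.000138). Both promoter windows held the ISRE core.

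Irgm1, an immunity-related GTPase that regulates the others of its family, rose at day 8 and passed in neither earlier step of the main fit. With the GC and length trend removed both steps passed in edgeR. Irgm1 then rose at day 2 (0.40 ± 0.15, adjusted p = 0.0327) and fell at day 4 against day 2 (-0.55 ± 0.16, adjusted p = 0.0121). It had 21.3, 34.1 and 30.2 CPM at day 8, against 9.70, 8.96 and 10.1 CPM in undifferentiated cells, without overlap (log2 change 1.54 ± 0.16, edgeR adjusted p = 8.52e-06). Igtp, of the same family, rose as well (log2 change 4.23 ± 0.58, with 3.65 without the undifferentiated NC and 4.94 without the undifferentiated DAMGO library). Against day 4 its change was 3.0, or 3.86 without the day 4 NC library. Its gene overlaps Irgm2 on the same strand over 7974 bases, so the reads of the pair may be divided with error. Iigp1 had 5 counts in the 14 libraries.

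**Figure D3:**
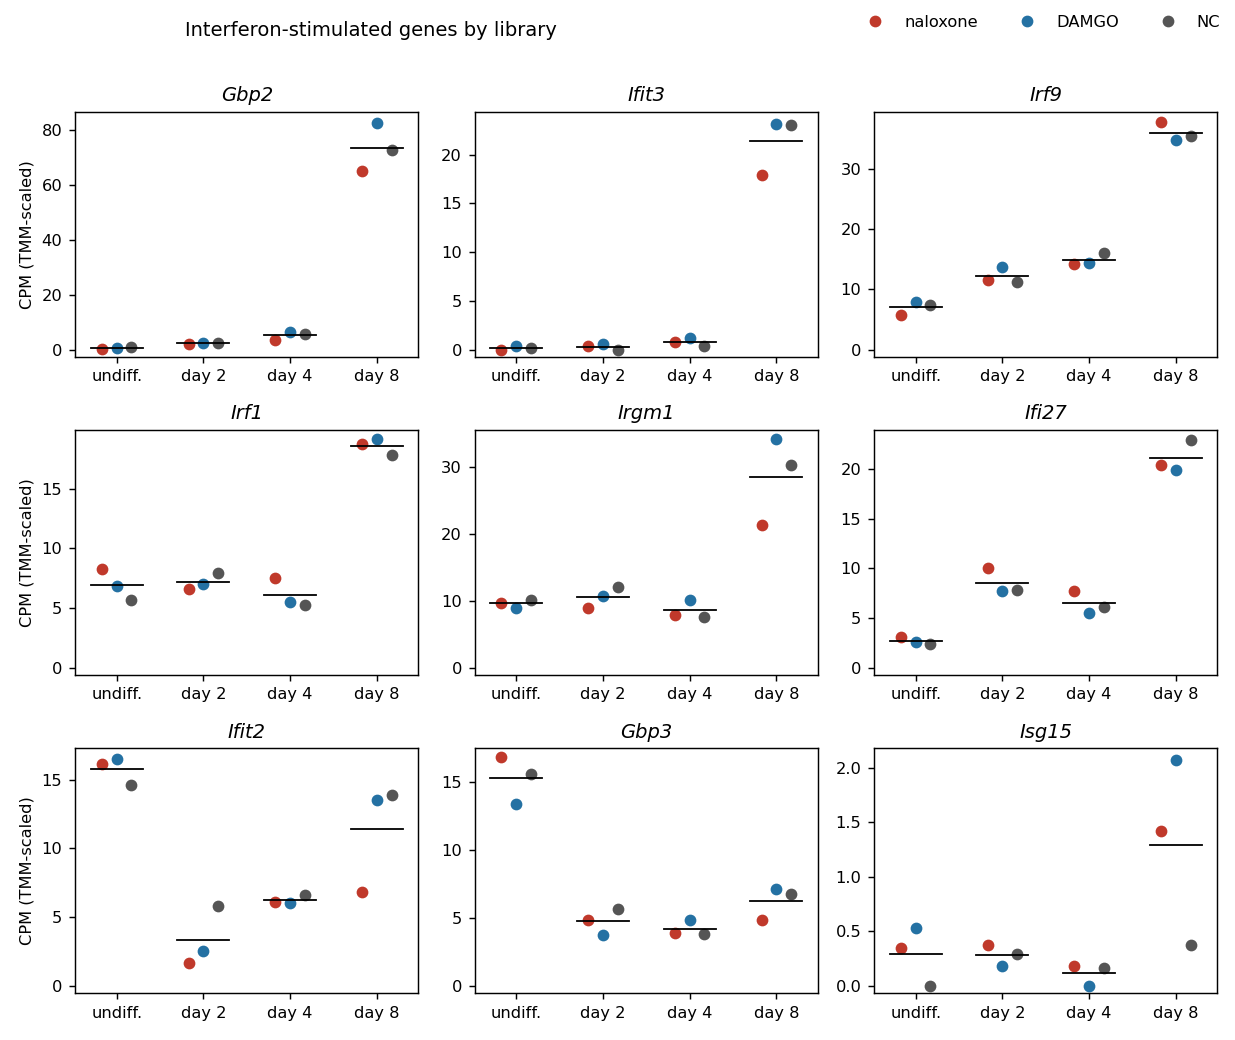
TMM-scaled CPM of 9 interferon-stimulated members in the 12 libraries, by stage, with points for naloxone, DAMGO and NC from left to right and a line at the stage mean. Gbp2 and Ifit3 lie close to 0 before day 8 and at 65.1 to 82.5 and 18 to 23.2 CPM at day 8, and Gbp3 and Ifit2 are highest in undifferentiated cells.

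Of the 5 tested genes of the ISG15 and ubiquitin system and of ADP-ribosylation, 3 rose and 1 fell at day 8 against undifferentiated cells. Of all genes tested 41.5% rose and 38.3% fell there. At day 4 against day 2, 0 of the 5 rose and 2 fell, beside 26.8% and 24.5% of all genes. At day 8 against day 4, 4 of the 5 rose and 0 fell, beside 36.7% and 31.1% of all genes. Isg15, the ubiquitin-like modifier that is among the most strongly induced genes of a type I response, had 1.42, 2.08 and 0.375 CPM at day 8, against 0.346, 0.527 and 0 CPM in undifferentiated cells. These ranges overlapped and rested on at most 12 counts in a library. The sums were 26 counts at day 8 and 5 in undifferentiated cells, a ratio of 4.36 with a counting interval of 1.65 to 14.5. Without the filter on low counts edgeR called Isg15 higher at day 8 against undifferentiated cells (log2 change 2.03, adjusted p = 0.0356). So it did at day 8 against day 4 (3.04, edgeR adjusted p = 0.0134). Usp18, the protease that removes ISG15, rose at day 8 (4.13, 3.46 and 3.94 CPM, against 0.519, 0.351 and 0.203 CPM in undifferentiated cells, log2 change 3.32 ± 0.56). Against day 4 it was at 3.83, with 3.07 without the day 4 NC and 4.42 without the day 4 DAMGO library. Trim25, the ubiquitin ligase that activates RIG-I, fell (0.472, 0.519 and 0.188 CPM at day 8, against 1.73, 3.52 and 1.42 CPM in undifferentiated cells, log2 change -2.36 ± 0.56). Parp9 and Dtx3l encode partners in a complex and overlap by 682 bases on opposite strands, so that their reads may be mixed where strand was not used. Parp9 averaged 5.85 ± 0.421 CPM in undifferentiated cells, 7.91 ± 0.472 CPM at day 2, 3.92 ± 0.551 CPM at day 4 and 9.77 ± 1.95 CPM at day 8 (SD, n = 3 each). It fell at day 4 against day 2 (log2 change -1.02 ± 0.19) and rose at day 8 against day 4 (1.30 ± 0.19). Its rise at day 8 against undifferentiated cells (0.72 ± 0.18) did not pass with log2(TPM + 1) (adjusted p = 0.121). Dtx3l did not pass at day 8 against undifferentiated cells (0.65 ± 0.36), but did with the GC and length trend removed (adjusted p = 0.0128). Its rise at day 8 against day 4 (1.13 ± 0.38) did not pass without the day 4 NC, day 4 DAMGO, day 8 naloxone or day 8 DAMGO library (adjusted p = 0.0845, 0.0912, 0.119 and 0.0714). Parp14, an ADP-ribosyltransferase, passed there (1.09 ± 0.42, edgeR adjusted p = 0.0347), but not in DESeq2 (adjusted p = 0.142), without the undifferentiated NC or DAMGO library (adjusted p = 0.0929 and 0.153), or without the day 8 naloxone or DAMGO library (adjusted p = 0.0948 and 0.187).

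Ifi27 and Ifi35, a pair of interferon-stimulated genes outside these groups, rose at day 8. Ifi27, a small mitochondrial membrane protein, had 9.98, 7.70 and 7.82 CPM at day 2, against 3.12, 2.64 and 2.43 CPM in undifferentiated cells, without overlap (log2 change 1.63 ± 0.18). At day 8 it had 20.4, 19.9 and 22.9 CPM (log2 change against undifferentiated cells 2.93 ± 0.17, edgeR adjusted p = 8.52e-08). Ifi35, a cytoplasmic protein released as a danger signal, fell at day 4 against day 2 (-1.89 ± 0.45) and averaged 3.30 ± 0.120 CPM at day 8 and 0.658 ± 0.234 CPM in undifferentiated cells (log2 change 2.27 ± 0.35). Its rise at day 2 (1.12 ± 0.39) did not pass in DESeq2 (adjusted p = 0.13), with no filter (0.057), with the GC and length trend removed (0.162), or without the undifferentiated NC, undifferentiated DAMGO, day 2 NC or day 2 DAMGO library (adjusted p = 0.114, 0.0642, 0.104 and 0.0523).

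All 7 members of MHC class I and peptide loading rose at day 8 against undifferentiated cells, beside 41.5% of all genes tested. Of the 7, 5 first fell at day 4 against day 2, beside 24.5% of all genes. The falls of 3 of them (H2-D1, Tap1 and Tap2) did not pass on the TPM scale. B2m encodes the light chain shared by all class I molecules and was, per length, the most abundant member at day 8, at 279 ± 69.4 TPM (SD, n = 3). In CPM it had 48.1, 49.9 and 46.8 in undifferentiated cells with naloxone, DAMGO and NC, 51.7, 52.3 and 58.6 at day 2, 24.5, 29.8 and 27.6 at day 4, and 82.9, 136 and 134 at day 8. The day 4 libraries lay below and the day 8 libraries above all others. The log2 change was -1.0 ± 0.15 at day 4 against day 2 and 2.09 ± 0.14 at day 8 against day 4.

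H2-K1 and H2-D1 encode classical heavy chains, which present peptides to CD8 T cells. H2-K1 had 80.4, 82.0 and 80.6 CPM at day 8, against 30.3, 33.6 and 32.2 CPM in undifferentiated cells, without overlap (log2 change 1.34 ± 0.09, edgeR adjusted p = 2.39e-07). It had already fallen at day 2, to 19.3, 16.7 and 16.1 CPM, and did not change at day 4 past the threshold (-0.04 ± 0.10). H2-D1 had 13.0, 10.9 and 11.7 CPM in undifferentiated cells, 12.4, 12.5 and 10.3 CPM at day 2, 6.62, 6.24 and 4.63 CPM at day 4, and 55.0, 55.0 and 55.3 CPM at day 8. The log2 change at day 8 against undifferentiated cells was 2.22 ± 0.12 (edgeR adjusted p = 4.13e-08). Its fall at day 4 against day 2 (-1.01 ± 0.14) did not pass with log2(TPM + 1) (-0.38, adjusted p = 0.112).

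H2-T23, which encodes the nonclassical molecule Qa-1 that engages NKG2A on natural killer cells, followed another course. Of the 31 members it was the 1 with its highest stage mean at day 2. It had 1.21, 2.29 and 2.63 CPM in undifferentiated cells, 11, 14.7 and 9.70 CPM at day 2, 1.84, 1.62 and 1.32 CPM at day 4, and 4.96, 3.81 and 5.25 CPM at day 8. The day 2 libraries lay above all others, with a log2 change of 2.53 ± 0.28 at day 2 against undifferentiated cells and -2.86 ± 0.30 at day 4 against day 2. Its change at day 8 against undifferentiated cells, 1.22 ± 0.31, did not pass with the trend on GC content and length removed (adjusted p = 0.191). The gene lies within A930015D03Rik on the opposite strand over 3083 bases, so reads of that gene may add to it.

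Tap1 and Tap2, the subunits of the transporter that brings peptides into the endoplasmic reticulum, were highest at day 8 and, in CPM, lowest at day 4. In TPM, Tap2 averaged 3.65 ± 0.49 in undifferentiated cells and 4.12 ± 0.954 at day 4. Tap1 averaged 4.87 ± 1.04 TPM at day 2 and 4.29 ± 1.63 TPM at day 4. Tap1 had 22.8, 20.4 and 23.2 CPM at day 8, against 9.87, 10.5 and 8.91 CPM in undifferentiated cells (log2 change 1.17 ± 0.20). Tap2 had 29.5, 23.4 and 23.1 CPM at day 8, against 5.54, 3.87 and 5.87 CPM in undifferentiated cells (2.32 ± 0.16). Neither gene's groups overlapped, and the day 4 means were 3.95 ± 1.47 CPM for Tap1 and 3.26 ± 0.339 CPM for Tap2. With log2(TPM + 1), the fall at day 4 against day 2 did not pass for Tap1 (-0.18, adjusted p = 0.563) or Tap2 (-0.44, adjusted p = 0.142). That of Tap1 also did not pass with the GC and length trend removed (adjusted p = 0.0587) or without the day 2 DAMGO, day 4 naloxone or day 4 DAMGO library (adjusted p = 0.124, 0.0627 and 0.113). Tapbp, which encodes tapasin, the bridge between the transporter and the class I molecule, rose at day 2 and again at day 8. It had 10.7, 13.5 and 18 CPM in undifferentiated cells, 72.5, 71.7 and 61.2 CPM at day 2, 53.5, 55.0 and 48.0 CPM at day 4, and 197, 160.1 and 164 CPM at day 8. The log2 change was 2.28 ± 0.17 at day 2 and 3.63 ± 0.17 at day 8, each against undifferentiated cells. Expected counts were not whole in 13 or 14 of the 14 libraries for H2-K1, H2-D1, H2-T23 and Tapbp, so some reads were divided between genes, and the labels do not give the MHC haplotype of the cells. B2m overlaps Patl2 on the opposite strand over 5398 bases, and Tapbp overlaps Zbtb22 on its own strand, so reads of these neighbours may add to them.

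The size of the class I changes depended on whether a trend on base composition was kept. With a trend on GC content and length removed from each library, the log2 change at day 8 against undifferentiated cells was 0.52 ± 0.08 for H2-K1, 1.37 ± 0.12 for H2-D1, 0.50 ± 0.17 for Tap1, 1.58 ± 0.16 for Tap2, 2.83 ± 0.13 for Tapbp and 2.03 ± 0.11 for B2m, and all 6 passed. On that scale B2m also rose at day 2 against undifferentiated cells (0.87 ± 0.11). Outside class I, Irf1 was at 0.66, Stat2 at 0.31 and Ifi27 at 2.08, all past the threshold, and 23 members in all rose at day 8. These included Ifih1 (1.75 ± 0.46) and Dtx3l (1.01 ± 0.33), which had not passed, and no longer Bst2 and H2-T23. The estimate of Samhd1, which had not passed, turned to -0.25 ± 0.12 and did not pass. What sets these trends was not tested.

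**Figure D4:**
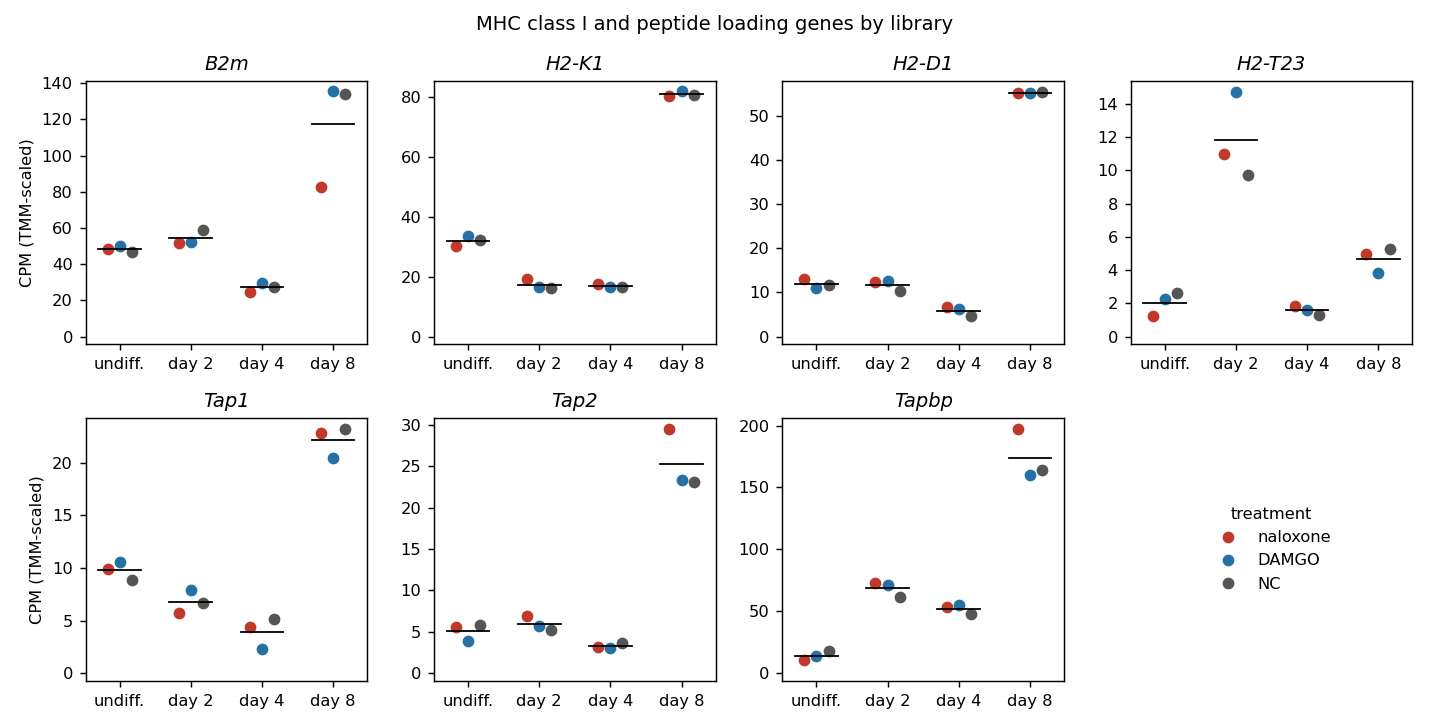
TMM-scaled CPM of the 7 members of MHC class I and peptide loading in the 12 libraries, by stage, with points for naloxone, DAMGO and NC from left to right and a line at the stage mean. H2-T23 peaks at day 2 at 9.70 to 14.7 CPM, and the naloxone point of B2m at day 8 (82.9 CPM) lies under the DAMGO (136 CPM) and NC (134 CPM) points.

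Per length, the members at day 8 spanned from B2m to transcripts near 0. After B2m came Tapbp at 137 ± 18.9 TPM, H2-K1 at 94.7 ± 1.82 TPM, Ifi27 at 54.4 ± 2.26 TPM, Gbp2 at 51.7 ± 5.88 TPM and H2-D1 at 50.5 ± 3.24 TPM (SD, n = 3 each). Ifi27, Gbp2 and H2-D1 did not differ in order beyond their spread. Isg15 was at 3.63 ± 2.44 TPM and Mx1 at 0.290 ± 0.110 TPM.

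**Figure D5:**
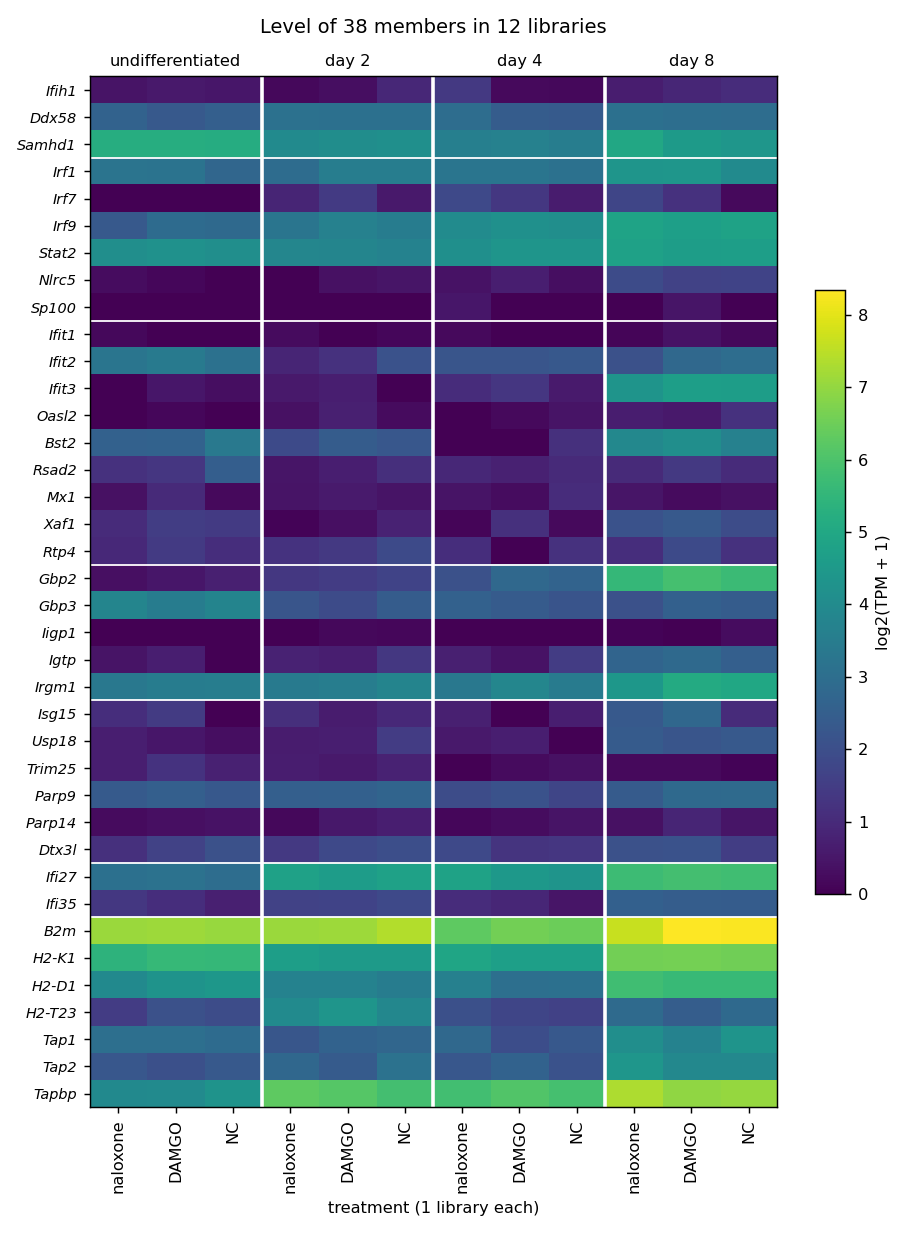
Log2(TPM + 1) of the 38 members found, in rows by role, in the 12 libraries, in columns by stage and treatment. The row of Gbp2 and the MHC class I rows at the bottom other than H2-T23 are each brightest at day 8. The row of H2-T23 is brightest at day 2 (16.1 ± 3.06 TPM, against 5.68 ± 1.06 TPM at day 8). The rows of Irf7, Sp100, Ifit1, Oasl2, Mx1 and Iigp1 stay dark in all 12 libraries.

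Transcripts of the interferons themselves were close to absent. Of 21 interferon ligand genes, 18 had 0 counts in all 14 libraries and the others had 11 counts together, where a count of 0 over the 14 libraries allows up to 0.0351 CPM. Ifnb1, the first type I interferon made after infection, had 1 count and Ifng had 0. Of the 9 receptor and Janus kinase genes 8 were tested, and Ifnlr1, a subunit of the type III receptor, had 12 counts in the 14 libraries. Ifnar1, a subunit of the type I receptor, averaged 128 ± 13 CPM at day 8 and 127 ± 14 CPM in undifferentiated cells (log2 change 0.02 ± 0.09). Of the 8 receptor and Janus kinase genes tested, 4 rose, 1 fell and 3 did not pass at day 8 against undifferentiated cells, beside 41.5% of all genes that rose and 38.3% that fell. Ifnar2 (0.35 ± 0.10), Ifngr1 (0.39 ± 0.13), Ifngr2 (0.60 ± 0.11) and Jak1 (1.03 ± 0.07) rose, Jak2 fell (-1.53 ± 0.29), and Tyk2 did not pass (0.23 ± 0.14).

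Other genes of the pathway were read against the same 41.5% and 38.3% of all genes. Irf3, which switches on Ifnb1, rose by 0.68 ± 0.13 on the log2 scale at day 8 against undifferentiated cells. Stat3, which carries signals of the interleukin 6 family, rose by 0.90 ± 0.07. Of 10 nucleic acid sensing genes tested 5 rose and 4 fell, among them Tlr3 (1.72 ± 0.21), a sensor of double-stranded RNA, Trex1 (1.09 ± 0.20), a nuclease that degrades cytosolic DNA, Mavs (0.82 ± 0.13), the adaptor of RIG-I and MDA5, and Adar (0.71 ± 0.07), an RNA editor that blunts MDA5. The DNA sensor Cgas and its adaptor Tmem173 (STING) fell by more than any other tested gene of that list, at -4.17 ± 0.43 and -4.44 ± 0.46, and were picked after their values were seen. Of 8 negative regulators tested 5 rose and 2 fell, with Socs3, an inhibitor of cytokine receptors, at 3.72 ± 0.17, Irf2bp1, a corepressor partner of IRF2, at 0.74 ± 0.11, the phosphatase Ptpn2 at -0.87 ± 0.19 and Pias1, a SUMO ligase, at -0.58 ± 0.16.

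Of 22 further interferon-stimulated genes tested, 16 rose and 4 fell at day 8 against undifferentiated cells, beside 41.5% and 38.3% of all genes tested. Cmpk2, a nucleotide kinase, averaged 40.9 ± 1.9 CPM at day 8 and 6.0 ± 0.97 CPM in undifferentiated cells (log2 change 2.77 ± 0.15). The immunoproteasome subunits Psmb8 (2.85 ± 0.54) and Psmb9 (2.83 ± 0.33), which favour peptides that suit class I, rose at low levels, 3.16 ± 0.67 and 5.33 ± 0.43 CPM at day 8, and Psmb9 overlaps Tap1 by 212 bases on the opposite strand. Parp12 (1.72 ± 0.14), an ADP-ribosyltransferase, and Psme1 (1.63 ± 0.12), a subunit of the proteasome activator PA28, rose. Gbp7 fell (-2.63 ± 0.37), as did its relative Gbp3. Of 11 class I and loading genes outside the list, 7 rose and 3 fell, among them H2-Q4 (1.44 ± 0.18), the neonatal Fc receptor Fcgrt (5.97 ± 0.29), the iron regulator Hfe (3.37 ± 0.21) and the lipid-presenting Cd1d1 (-1.75 ± 0.14). Of 12 MHC class II genes 4 were tested and 3 rose, namely H2-DMa (0.98 ± 0.32), which helps load peptide, and the promoter-binding factors Rfxap (0.51 ± 0.10) and Rfxank (0.88 ± 0.11). Ciita, the master regulator of class II, was at 0.523 ± 0.21 CPM at day 8 and Cd74, the invariant chain, at 0 counts in all 3 day 8 libraries.

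Markers of immune cells stayed near 0. Over 15 microglia and macrophage markers the summed level was 2.01 to 3.37 CPM at day 8 and 2.46 to 4.46 CPM in undifferentiated cells, and Cx3cr1, C1qa, C1qb, C1qc and Trem2 had 0 counts in all 14 libraries. Cd68 had the most counts of the 15, 105 over the 14 libraries. It averaged 1.48 ± 0.263 CPM at day 8 and 1.59 ± 0.469 CPM in undifferentiated cells. Adgre1 had 10 counts at day 8 and 1 in undifferentiated cells, and P2ry12 had 2 and 16. Over 8 lymphocyte markers the summed level was 0 to 0.188 CPM at day 8 and 0 to 0.607 CPM in undifferentiated cells. Most astrocyte markers rose. Their sum over 8 genes was 1117 to 1151 CPM in undifferentiated cells and 3382 to 3644 CPM at day 2. It was 5865 to 5992 CPM at day 4 and 18830 to 20090 CPM at day 8. The largest at day 8 were Gfap (8784 ± 324 CPM), Clu (3808 ± 259 CPM) and Slc1a3 (3689 ± 505 CPM). Other markers took another course. Slc1a2 averaged 573 ± 5.13 CPM at day 4 and 184 ± 28 CPM at day 8. Aldh1l1 averaged 174 ± 20.5 CPM at day 2 and 80.7 ± 3.19 CPM at day 8. In all, 7 of the 8 rose at day 8 against undifferentiated cells, beside 41.5% of all genes tested. Of 6 NSC markers Vim, Pax6 and Sox2 rose and Nes, Fabp7 and Mki67 fell there. Vim, an intermediate filament that astrocytes also use, averaged 6775 ± 96.9 CPM at day 8 and 3010 ± 23.8 CPM in undifferentiated cells. Nes, an intermediate filament of progenitors, averaged 268 ± 41.4 CPM at day 8 and 1805 ± 77.5 CPM in undifferentiated cells. Kdr (log2 change 3.35 ± 0.22), the 1 of 6 endothelial markers tested, and Pdgfrb (7.99 ± 0.27), the 1 of 5 pericyte markers tested, also rose, while Cdh5 and Cldn5 had 0 counts in all 14 libraries. The part of these cell types in the members' changes was not tested.

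No member passed the threshold between naloxone and NC or between DAMGO and NC in the model over the 4 stages. In both comparisons 0 of 31 members and 0% of all genes tested passed in edgeR, DESeq2 and limma-voom. At an unadjusted p under 0.05 there were 2 members for naloxone, Parp14 and Gbp2, and 0 for DAMGO, among 1344 and 325 genes of the 13413. Parp14 had a log2 change of -1.21 ± 0.39 with naloxone (edgeR adjusted p = 0.473), and Gbp2 one of -0.32 ± 0.14 (edgeR adjusted p = 0.473). B2m was at -0.26 ± 0.12, with 82.9 CPM under naloxone and 134 CPM under NC at day 8. Its estimate turned to 0.044 with a trend on GC content and length removed. The ratio of naloxone to NC at day 8 correlated across 10760 genes with GC content (r = 0.576), as did those of naloxone (0.612) and DAMGO (0.589) to NC at day 2, where the other 5 ratios had r of -0.0404 to 0.189. For DAMGO, Ifih1 had a log2 change of -0.68 ± 0.50, Trim25 0.51 ± 0.47 and Ifit3 0.33 ± 0.38, all short of the threshold.

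A drug difference at day 2 that departs from the other stages was tested with an interaction term, and 0 members passed for naloxone or for DAMGO. Of all genes tested 0.455% were higher and 10.3% lower for naloxone, and 0.142% higher and 5.29% lower for DAMGO. Together these were 10.7% for naloxone and 5.43% for DAMGO. Ifit2 had the smallest adjusted p of the 31 members for naloxone, with 1.64 CPM under naloxone, 2.51 CPM under DAMGO and 5.79 CPM under NC at day 2. Its interaction was -1.47 ± 0.59 for naloxone (edgeR adjusted p = 0.159) and -1.23 ± 0.59 for DAMGO. Samhd1 was at -0.55 ± 0.23 for naloxone and -0.52 ± 0.24 for DAMGO, Nlrc5 at -5.10 ± 2.10 for naloxone and Ifit3 at 4.60 ± 2.21 for DAMGO, both with 0 to 4 counts in each day 2 library, so that these fitted values are no bound. Without the day 8 naloxone library, where Ifit2 was also low at 6.85 CPM against 13.9 CPM under NC, the naloxone interaction was -1.83 and passed (edgeR adjusted p = 0.0041). With the GC and length trend removed, B2m passed for naloxone at 0.52 ± 0.15 (edgeR adjusted p = 0.0399), against 0.14 ± 0.25 with it left in. These ratios share the GC trend named above, and its part in them was not tested.

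The reference libraries at passage 13 and passage 8 were compared without a test, since each is 1 library. Of 26 members with at least 10 counts over both, 2 were higher and 2 lower by over 2-fold, where 2.12% of 13210 genes were higher and 2.28% lower. Ifi27 had 53 counts, 7.25 CPM, at passage 13 and 7 counts, 1.16 CPM, at passage 8, a ratio of 6.27 with a 95% counting interval of 2.84 to 16.4. Usp18 was higher (ratio 3.31, interval 0.661 to 32.0), and Ifih1 (0.460, 0.121 to 1.53) and Trim25 (0.414, 0.111 to 1.33) were lower, each with an interval that includes 1. Set against the range of the undifferentiated libraries of the same passage, the passage 8 reference lay above it for 9 members, below it for 7 and within it for 22. Sp100 and Iigp1, with 0 counts in these libraries, are counted as within. The same split was not taken over all genes, so it is not read as a difference particular to the members. The genes that follow are values of 1 library and were not tested. Gbp3 (23.4 CPM against 13.4 to 16.8 CPM), Samhd1 (47.9 against 39.7 to 41.9 CPM) and Ifit2 (18.7 against 14.6 to 16.5 CPM) were above, and Ifi27 (1.16 against 2.43 to 3.12 CPM) and H2-K1 (22.8 against 30.3 to 33.6 CPM) below. B2m was level, at 49.4 CPM at passage 13 and 47.5 CPM at passage 8.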

How the data were processed

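RNA was taken from the cells with Trizol and made into libraries with an Illumina TruSeq RNA kit, per the labels' protocols. Per the submitters' processing notes, reads were handled with Bowtie and RSEM on mm10, with neither versions nor strand settings given. The authors deposited an expected count and a TPM value per gene, per the file headers. Libraries held 4143030 to 9070533 expected counts, so 3 counts corresponded to 0.354 to 0.693 CPM. Expected counts, not whole for 10.4 to 13.1% of genes, were rounded. GENCODE vM21 of the same build gave positions and symbols, for 29202 of 29713 identifiers, and RefSeq the promoters.

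The main test was edgeR's quasi-likelihood test with TMM scaling and filterByExpr, in a model with stage and treatment as additive terms for 12 libraries with 6 residual degrees of freedom, or 4 for the day 2 interaction. P-values were adjusted by Benjamini-Hochberg over 13413 genes at a threshold of 0.05. The members and gene lists were chosen with earlier results of these data known. Members are given in full by rule: the 10 largest changes at day 8 and the 4 largest in each other stage comparison, at a mean of at least 5 CPM, all of MHC class I, and the 3 smallest p per drug. Others are named to account for every member, and H2-DMa, Nes, Vim, Kdr, Pdgfrb, Cdh5 and Cldn5 were chosen after their values were seen. So were Cd68, Adgre1, P2ry12, Gfap, Clu, Slc1a3, Slc1a2 and Aldh1l1. The ratios of the passage libraries, and those with 1 to 3 counts, carry exact 95% counting intervals. Alternatives were DESeq2 and its size factors, limma-voom, limma on log2 TPM, no filter, a minimum change of 2-fold, GC content and length trends removed with mgcv, the passage 8 reference added, and libraries left out. The code was tested on simulated data. A result for 1 pathway gene is not reported here. Fits used edgeR 4.0.16 and DESeq2 1.42.0, then mgcv 1.9.3 with limma 3.58.1, all in R 4.3.3.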

Additional observations from a re-analysis of the deposited data

How the results depend on the processing

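Member counts moved most with a required change of 2-fold. With it 15 members rose and 1 fell at day 8 against undifferentiated cells, 4 rose and 2 fell at day 2, 0 rose and 1 fell at day 4 against day 2, and 19 rose and 0 fell at day 8 against day 4. The shares of all genes that rose and fell were then 19.1% and 18.7%, 9.19% and 12.2%, 2.89% and 1.94%, and 8.22% and 9.57% in that order. At day 4 against day 2, 5 members rose with log2(TPM + 1) and 4 with log2(TPM + 0.1). For the naloxone interaction at day 2, 1 member was higher with the GC and length trend removed. With TPM, 1 member was lower at passage 13 against passage 8. With each library left out in turn, 21 to 24 members rose and 2 to 3 fell at day 8 against undifferentiated cells, 6 to 8 rose and 5 to 7 fell at day 2, 1 to 3 rose and 9 to 12 fell at day 4 against day 2, and 24 to 28 rose and 0 fell at day 8 against day 4. The lowest of these rises at day 4 came without the NC or the DAMGO library of that day. For naloxone and DAMGO over the stages 0 members passed in each such fit, and for the naloxone interaction 0 to 1 were lower, 1 without the day 8 naloxone library. Without the day 2 NC and day 8 naloxone libraries, a choice made after seeing the data, 23 members rose and 2 fell at day 8. Of the 34 named results, B2m under naloxone reversed, to 0.044 without the GC and length trend, and the causes of these changes were not tested. Apart from the 2-fold minimum, at least 1 alternative ended the call of 5 of 25 members at day 8 against undifferentiated cells (Bst2, Xaf1, Parp9, Parp14 and H2-T23), 4 of 15 at day 2 (Xaf1, Parp9, Ifi35 and Tap1), 5 of 13 at day 4 against day 2 (Samhd1, Stat2, H2-D1, Tap1 and Tap2) and 4 of 27 at day 8 against day 4 (Ifih1, Ifit2, Parp14 and Dtx3l). No filter on low counts added Irf7, Oasl2 and Isg15 to the members that rose at day 8 and took out Parp14. No paired analysis was possible because the labels give no replicate numbers, and treatment, which links 1 library of each stage, is a term of the model already. The day 2 interaction could not be fitted without the day 2 NC library or the drug's own day 2 library. With 1 library per condition and 4143030 to 9070533 counts in each, members under 1 CPM rest on a handful of reads.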
